A study of Homo sapiens with 6 samples.

Results

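Iron storage and uptake genes were described in T24, a human cell line from a bladder cancer. They were the 10 genes FTH1, FTL, BEST1, TFRC, SLC11A2, SLC40A1, ACO1, IREB2, NCOA4 and STEAP3, taken by symbol from a table of 37871 genes. BEST1 is no iron gene and was included because its exons overlap those of FTH1. RNA was sequenced from 3 libraries of vehicle cells and 3 of cells given lipopolysaccharide (LPS), a bacterial cell wall component, plus nigericin, a bacterial ionophore used to set off the NLRP3 inflammasome. The labels name no group given either agent alone, dose and duration are not given in the sources used, and separate cultures are not stated. The p-values therefore measure only the spread between these libraries, which may be technical.

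Cells take up iron mainly as transferrin, which binds the transferrin receptor encoded by TFRC and enters endosomes. There the reductase STEAP3 converts the iron, and the transporter encoded by SLC11A2 (DMT1) moves it to the cytosol. Surplus iron is stored in ferritin, a shell of heavy (FTH1) and light (FTL) chains, is freed again when NCOA4 carries ferritin to the lysosome, and leaves the cell through ferroportin, encoded by SLC40A1. The iron regulatory proteins, encoded by ACO1 and IREB2, bind a stem-loop in RNA called the iron-responsive element when iron is low. Bound at the 5′ end of a transcript the proteins block its translation, and bound at the 3′ end they protect it from decay.

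The iron-responsive elements of the members are shown because their position divides the storage and export transcripts from the uptake transcripts. Coding transcripts of GENCODE release 29 were searched on the transcribed strand for the following letters: a C, any 5 bases, the loop CAGTGN (N is any base) and 5 bases, of which at least 4 pair with the 5 before the loop (G-T pairs allowed). Each window of 30 bases runs 5′ to 3′, with the 6 loop letters in capitals. FTH1, FTL and SLC40A1 held the element in the 5′ untranslated region, each with all 5 pairs.
FTH1 5′: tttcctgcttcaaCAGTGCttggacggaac
FTL 5′: tctcttgcttcaaCAGTGTttggacggaac
SLC40A1 5′: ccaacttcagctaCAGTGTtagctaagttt
TFRC held 4 matches with all 5 pairs in its 3′ untranslated region, and SLC11A2 held 1 match there with 4 pairs.
TFRC 3′ site a: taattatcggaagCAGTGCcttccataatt
TFRC 3′ site b: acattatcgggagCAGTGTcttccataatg
TFRC 3′ site c: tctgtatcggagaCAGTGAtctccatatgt
TFRC 3′ site d: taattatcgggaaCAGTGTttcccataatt
SLC11A2 3′: tagccatcagagcCAGTGTgtttctatggt

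On GRCh38 these windows lie at chr11:61967574-61967603 (FTH1, minus strand), chr19:48965334-48965363 (FTL, plus strand) and chr2:189580661-189580690 (SLC40A1, minus strand). The TFRC windows a to d lie on the minus strand of chromosome 3 at 196050979-196051008, 196050575-196050604, 196050510-196050539 and 196050463-196050492. The SLC11A2 window lies at chr12:50988269-50988298 on the minus strand. Among the longest coding transcripts of 19644 protein-coding genes, 0.804% held such a match in the 5′ and 4.09% in the 3′ untranslated region, and 10.1% held one anywhere. Matches with all 5 pairs were found in 1.32%. ACO1 and IREB2 each held 1 match with 4 pairs in the 3′ untranslated region. A match is a description of the letters, and no protein binding was measured here.

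After LPS plus nigericin the transferrin receptor transcript TFRC rose about 3.13-fold, and SLC11A2 and NCOA4 also rose. FTL, STEAP3 and BEST1 fell. FTH1, the most abundant member, ACO1 and IREB2 did not pass the test, and SLC40A1 was too low to test. Thus 3 of the 9 tested members rose, 3 fell and 3 did not pass, beside 28.9% of all 19170 tested genes that rose, 26.4% that fell and 55.3% that passed in either direction. The shares of members that rose and that fell were near this background. The median log2 fold change was 0.20 over the 9 tested members and 0.002 over all tested genes.

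Among the members that passed, those that rose had lower GC content than those that fell, and transcript length did not divide them. TFRC, SLC11A2 and NCOA4 had 41.5%, 43.0% and 43.1% GC and longest transcripts of 5111, 4348 and 3549 bases. FTL, BEST1 and STEAP3 had 56.3%, 54.2% and 56.9% GC, and longest transcripts of 878, 5772 and 4262 bases. The members that were tested and did not pass, IREB2, ACO1 and FTH1, had 38.3%, 45.7% and 50.1% GC. IREB2 thus had the lowest GC content of all members without a call. A fit that offset each library's trend with GC content and length called 1 member higher, TFRC, and 4 lower, BEST1, STEAP3, ACO1 and IREB2. In that fit 25.0% of 13976 protein-coding genes were called higher and 29.5% lower, 54.5% in all. The cause of these trends was not tested, and values of both fits are given.

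**Figure D1:**
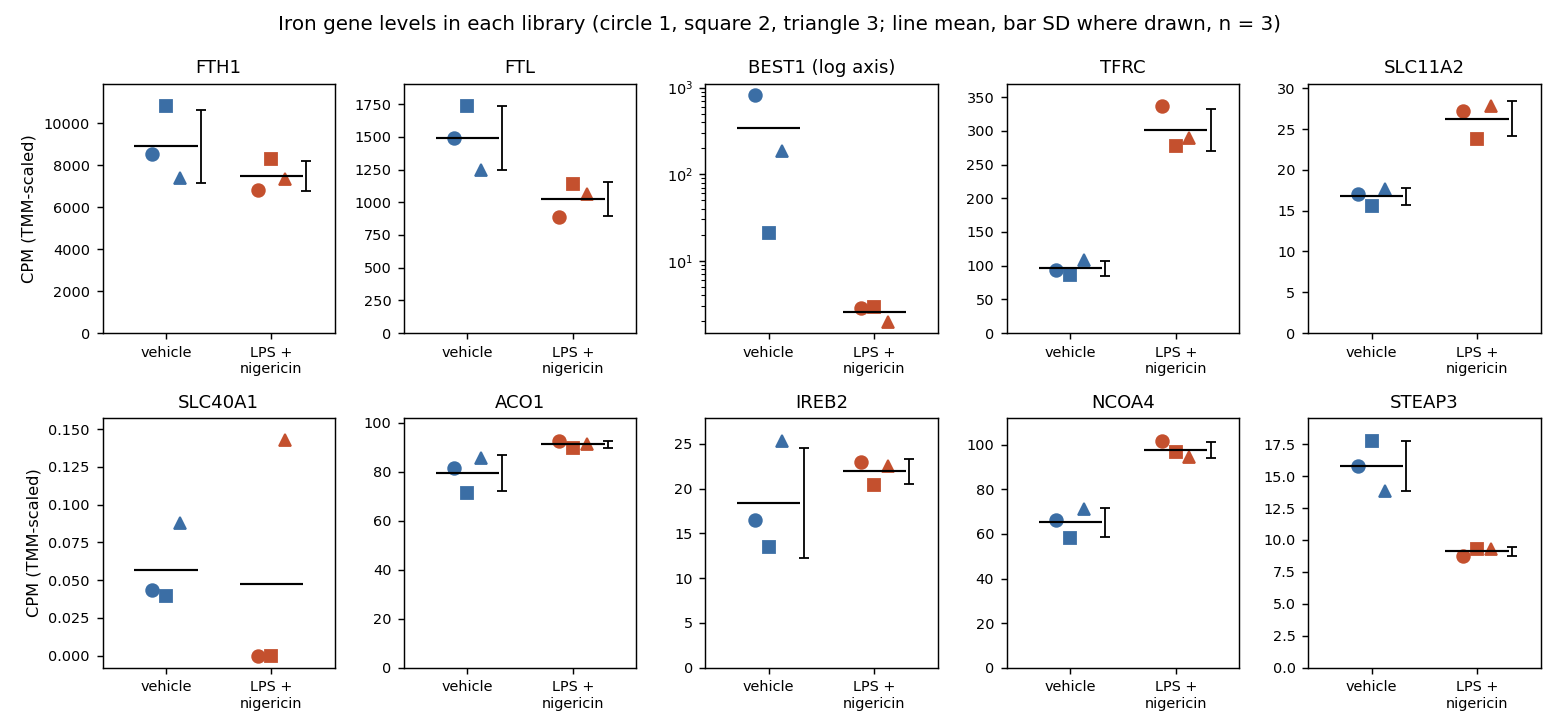
Level of each of the 10 genes in CPM (scaled counts, y axis) in the 3 vehicle (blue) and 3 LPS plus nigericin (red) libraries. Symbols mark the library number, lines the mean and bars the SD (n = 3, not drawn for BEST1 and SLC40A1), and BEST1 has a log axis. The groups do not overlap for TFRC, SLC11A2, NCOA4 and ACO1 (higher) or FTL, STEAP3 and BEST1 (lower).

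**Figure D2:**
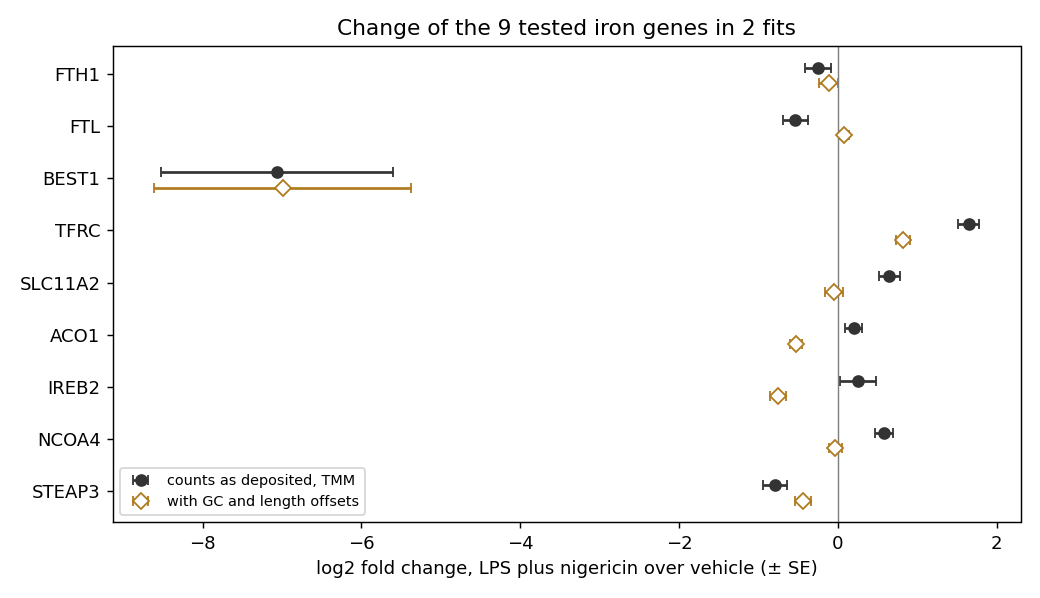
Log2 fold change of LPS plus nigericin over vehicle (x axis, bars SE) for the 9 tested genes, from the counts as deposited with TMM scaling (filled) and with offsets for GC content and length (open). TFRC is above 0 in both fits, at 1.65 and 0.82, STEAP3 and BEST1 are below 0 in both, and FTL, SLC11A2, NCOA4, ACO1 and IREB2 change sign.

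Levels are given in CPM, counts scaled to 1e6 per library with TMM factors, and p-values come from the edgeR quasi-likelihood test with Benjamini-Hochberg adjustment over 19170 genes. Library totals ran from 66180407 to 89152224 counts, so counting error is small for every member except SLC40A1. Vehicle and treated values did not overlap for 7 of the 9 tested members, 4 higher and 3 lower. Over all tested genes 67.0% did not overlap, 35.0% higher and 32.0% lower. In bulk RNA a change in the number of cells of a kind and a change in RNA per cell cannot be told apart. The keratin genes KRT7, KRT8, KRT18 and KRT19 were expressed at 139 to 4016 CPM in all 6 libraries and fell, whereas the epithelial markers EPCAM and CDH1 were low, EPCAM at 1.13 to 3.34 CPM and CDH1 at 0 in 5 libraries. The 7 leukocyte and macrophage markers summed to 7.94 to 16.4 CPM in vehicle and 5.18 to 7.84 CPM after treatment. PTPRC and CD163, which define leukocytes and a class of macrophages, were at 0 in 5 and 6 libraries. These 7 markers did not move together. CD68 fell, from 4.83 to 11.8 CPM in vehicle to 1.96 to 2.97 CPM after treatment (edgeR adjusted p = 0.00903). LYZ rose at a low level, from 0 to 0.157 CPM to 0.587 to 0.801 CPM (edgeR adjusted p = 0.0164). CD14 and CSF1R did not pass, and PTPRC, CD163 and ITGAM were not tested. Erythroid markers summed to at most 0.298 CPM.

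Of the storage genes, FTH1 (ENSG00000167996), the ferritin heavy chain with ferroxidase activity, was at 8528, 10818.5 and 7384 CPM in vehicle and at 6841, 8287 and 7361 CPM after treatment. The groups overlapped, since vehicle library 3 lay below treated library 2. The means were 8910 ± 1749 and 7496 ± 732 CPM (SD, n = 3), with a log2 fold change of -0.25 ± 0.165 SE (adjusted p by edgeR = 0.230). FTH1 took 0.817% to 1.01% of all counts in vehicle and 0.684% to 0.798% after treatment. Vehicle library 2 was the highest of the 6. With library totals in place of TMM factors FTH1 passed the threshold, at -0.29 (edgeR adjusted p = 0.0448).

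FTL (ENSG00000087086), the ferritin light chain, was at 1490, 1734 and 1247 CPM in vehicle and at 886, 1139 and 1061 CPM after treatment. Every treated library was below every vehicle library. FTL fell from 1490 ± 244 to 1029 ± 130 CPM (SD, n = 3), a log2 fold change of -0.53 ± 0.157 SE (adjusted p by edgeR = 0.0205). The call was lost without vehicle library 1 (edgeR adjusted p = 0.0617), treated library 1 (0.0823) or treated library 3 (0.0608). With GC and length offsets FTL was at 0.077 (edgeR adjusted p = 0.358), so its direction depends on that choice.

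Per length, FTH1 transcripts outnumbered FTL transcripts in every library. TPM is counts per exon length scaled to 1e6, computed here with the length of all annotated exons of a gene. It gave FTH1 to FTL ratios of 2.48, 2.70 and 2.56 in vehicle and 3.34, 3.15 and 3.0 after treatment. That length is 2030 bases for FTH1, whose longest transcript has 1229, and 878 bases for FTL by either measure. The ratios are therefore lower than longest transcripts would give, in both groups alike. All treated ratios exceeded all vehicle ratios, at 3.16 ± 0.171 against 2.58 ± 0.112 (SD, n = 3). This direction was not kept under the GC and length offsets, where FTH1 was at -0.12 and FTL at 0.077 on the log2 scale. No test was run on this ratio, for which an exact permutation of 3 against 3 libraries could not give a p below 0.1.

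FTH1 has many processed pseudogenes, copies of its transcript elsewhere in the genome that can take its reads. The table held 20 FTH1 pseudogenes, 18 of them with counts, and their summed level was 42.5 to 65.2 CPM in vehicle and 39.4 to 48.6 CPM after treatment. FTH1P2, at 19.2 ± 4.37 CPM in vehicle and 16.5 ± 1.71 CPM after treatment, and FTH1P8, at 13.6 ± 4.06 and 10.5 ± 1.16 CPM (SD, n = 3), held the most counts. Neither passed the threshold. Of the 13 tested FTH1 pseudogenes, 2 rose and 1 fell, beside 28.9% of all tested genes that rose and 26.4% that fell. The 2 that rose were near the floor, with 71 and 62 counts in all libraries together. The 5 FTL pseudogenes summed to at most 0.965 CPM, most of it in FTLP3, which did not pass, and FTLP12 held 10 counts in all libraries together. FTL with its pseudogenes summed had a log2 fold change of -0.54 ± 0.157 SE (adjusted p by edgeR = 0.0205).

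BEST1 (ENSG00000167995), which encodes bestrophin 1, a chloride channel of the retinal pigment epithelium, runs on the plus strand of chromosome 11 from 61949821 to 61965515. FTH1 runs on the minus strand from 61959718 to 61967660, so the 2 genes point toward each other and their 3′ ends overlap. In GENCODE 29 they share 1267 bases of exon, 62.4% of the exon sequence of FTH1 and 14.2% of that of BEST1. A single long BEST1 model covers 880 of the 1229 bases of the longest coding FTH1 transcript, all of them in FTH1 exons 2, 3 and 4, and another covers 177 bases of exon 4. The strand setting of the counting and its annotation release are not given in the sources used, so BEST1 counts can include reads of FTH1.

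BEST1 was at 821, 21.1 and 187 CPM in vehicle libraries 1 to 3 and at 2.83, 2.90 and 1.98 CPM in treated libraries 1 to 3. The groups did not overlap, but the highest vehicle library was 39.0 times the lowest, against 1.47 times among treated libraries. The lowest vehicle library was 7.27 times the highest treated library. The log2 fold change was -7.06 ± 1.46 SE (adjusted p by edgeR = 0.00870), and -5.35 without vehicle library 1 (edgeR adjusted p = 0.00511). It was -6.99 with GC and length offsets.

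The spread of BEST1 did not follow that of FTH1. Vehicle library 1 was highest for BEST1 and vehicle library 2 for FTH1. Of the counts of both genes together, BEST1 held 8.78% in vehicle library 1, 0.194% in library 2 and 2.47% in library 3, and 0.0268% to 0.0413% in treated libraries. Added together, FTH1 and BEST1 were at 9349, 10839.5 and 7571 CPM in vehicle and at 6844, 8289 and 7363 CPM after treatment, and the groups overlapped. The log2 fold change of this sum was -0.30 ± 0.159 SE (adjusted p by edgeR = 0.139), also with all 20 FTH1 pseudogenes included.

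**Figure D3:**
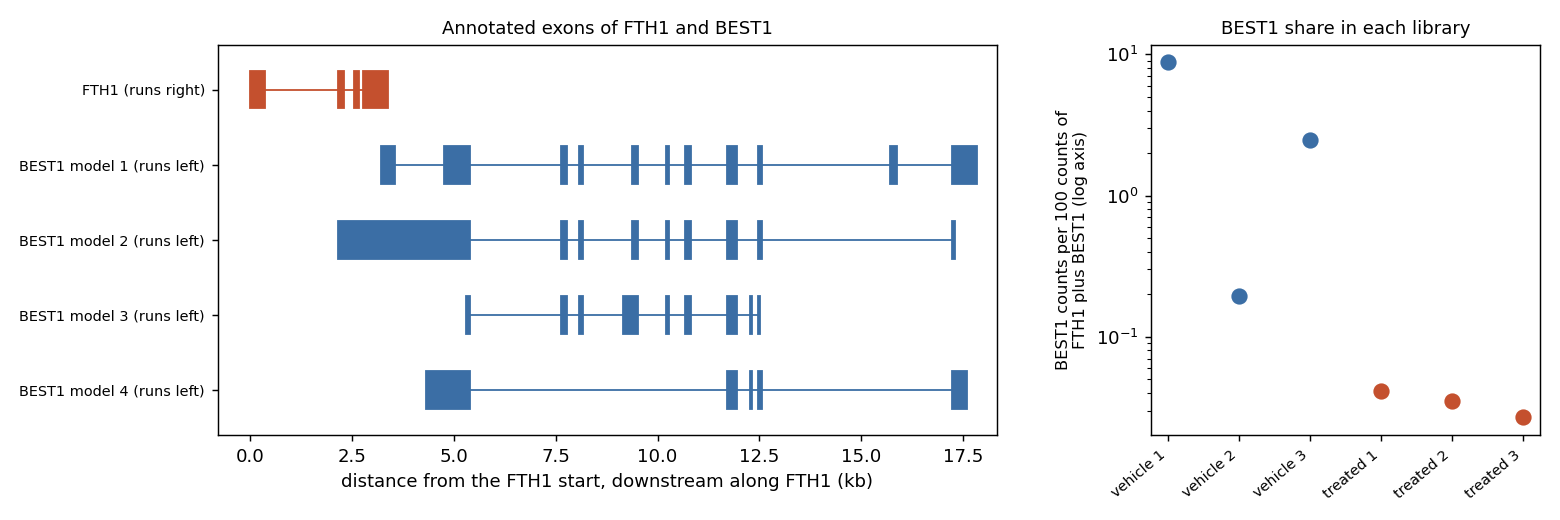
Left, annotated exons (boxes) of the longest coding FTH1 transcript (red) and the 4 coding BEST1 models (blue), by distance from the FTH1 start in kb, where model 2 reaches over 3 FTH1 exons. Right, BEST1 counts as a percentage of FTH1 plus BEST1 counts in each library (log axis), from 8.78% in vehicle library 1 to 0.0268% in treated library 3.

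A list of 13 genes around this locus on chromosome 11, FTH1 and BEST1 included, was tested, of which 1 rose, 7 fell (BEST1 among them) and 5 did not pass, beside 28.9% of all tested genes that rose and 26.4% that fell. FADS1, a fatty acid desaturase, rose from 240 ± 9.44 to 301 ± 13.4 CPM (log2 ratio 0.33). FADS2, a related desaturase, fell from 145 ± 14.0 to 78.0 ± 1.74 CPM (-0.90), and RAB3IL1 from 9.02 ± 1.80 to 3.28 ± 0.892 CPM (-1.46). Under the offsets 1 of the 13 was called higher and 6 lower, beside 25.0% and 29.5% of all genes in that fit. The 1 called higher was not FADS1 but a gene that did not pass without the offsets. FADS1 was then at 0.12 and did not pass (edgeR adjusted p = 0.112), and FADS2 at -0.54 and RAB3IL1 at -0.64 were still called lower.

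Of the uptake genes, TFRC (ENSG00000072274), the transferrin receptor, was at 93.2, 86.3 and 109 CPM in vehicle and at 336, 277 and 289 CPM after treatment. The lowest treated library was above the highest vehicle library. TFRC rose from 96.1 ± 11.5 to 301 ± 31.2 CPM (SD, n = 3), a log2 fold change of 1.65 ± 0.134 SE (adjusted p by edgeR = 9.51e-05). Leaving out any library gave 1.56 to 1.74, and each of these fits called it. With GC and length offsets TFRC was at 0.82 (SE 0.091, edgeR adjusted p = 1.80e-04).

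SLC11A2 (ENSG00000110911), the DMT1 transporter, was at 17.0, 15.6 and 17.6 CPM in vehicle and at 27.2, 23.8 and 27.8 CPM after treatment. The groups did not overlap. SLC11A2 rose from 16.8 ± 1.03 to 26.3 ± 2.16 CPM (SD, n = 3), a log2 fold change of 0.65 ± 0.131 SE (adjusted p by edgeR = 0.00412). With GC and length offsets it was at -0.046 (edgeR adjusted p = 0.755), so the call and its direction were lost. Counts per gene do not separate the SLC11A2 isoforms, of which only some carry the 3′ element shown above.

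STEAP3 (ENSG00000115107), the endosomal ferrireductase, was at 15.8, 17.7 and 13.8 CPM in vehicle and at 8.72, 9.32 and 9.31 CPM after treatment. The groups did not overlap. STEAP3 fell from 15.8 ± 1.95 to 9.12 ± 0.345 CPM (SD, n = 3), a log2 fold change of -0.79 ± 0.148 SE (adjusted p by edgeR = 0.00292), and was at -0.44 (edgeR adjusted p = 0.00605) with GC and length offsets. Its exons share 500 bases, 11% of its exon sequence, with STEAP3-AS1 on the opposite strand.

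SLC40A1 (ENSG00000138449), the iron exporter ferroportin, was close to absent. It had 4, 3 and 8 counts in vehicle and 0, 0 and 12 counts in treated libraries, at most 0.143 CPM, and did not pass the count filter. No difference was detectable at this depth.

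Of the regulators, ACO1 (ENSG00000122729), iron regulatory protein 1 and also a cytosolic aconitase, was at 81.6, 71.5 and 85.4 CPM in vehicle and at 92.5, 89.8 and 91.2 CPM after treatment. The groups did not overlap, but the log2 fold change of 0.20 ± 0.109 SE (adjusted p by edgeR = 0.159) did not pass. IREB2 (ENSG00000136381), iron regulatory protein 2, was at 16.5, 13.5 and 25.3 CPM in vehicle and at 22.9, 20.4 and 22.6 CPM after treatment. The treated values lay within the vehicle range (log2 ratio 0.25 ± 0.227 SE, adjusted p by edgeR = 0.376). Without vehicle library 3, the highest of the 6, IREB2 was called higher, at 0.54 (edgeR adjusted p = 0.0140). With both offsets both genes were called lower, ACO1 at -0.53 and IREB2 at -0.75 (edgeR adjusted p = 6.15e-04 and 5.55e-04), so neither has a direction that both fits share.

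NCOA4 (ENSG00000266412), the cargo receptor of ferritin autophagy, was at 66.4, 58.3 and 71.0 CPM in vehicle and at 102, 96.9 and 94.5 CPM after treatment. All treated libraries exceeded all vehicle libraries. NCOA4 rose from 65.2 ± 6.43 to 97.7 ± 3.64 CPM (SD, n = 3), a log2 fold change of 0.58 ± 0.114 SE (adjusted p by edgeR = 0.00360). With both offsets it was at -0.034 (edgeR adjusted p = 0.747).

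Ordered per length, the level of FTH1 in vehicle was 12770 ± 895 TPM and that of FTL 4952 ± 244 TPM, far above the other members. BEST1, NCOA4, TFRC and ACO1 followed at means of 117, 47.6, 36.4 and 31.3 TPM, and each overlapped its neighbour in that order over the 3 libraries. STEAP3 came next at 10.1 ± 0.223 TPM, then IREB2 at 5.17 and SLC11A2 at 4.91 TPM, which overlapped, and SLC40A1 at 0.040 TPM. After treatment TFRC was next after FTL, at 108 ± 14.4 TPM, above NCOA4 at 67.7 ± 4.15 and ACO1 at 34.1 ± 1.57 TPM with no overlap. BEST1 was below all members except SLC40A1, at 0.812 ± 0.161 TPM. The length of all annotated exons exceeds that of most transcripts, so TPM understates genes with many isoforms such as BEST1, SLC11A2 and FTH1.

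By uncorrected TPM, fewer ferritin transcripts were counted per TFRC transcript in every treated library than in any vehicle library. There were 355, 487 and 264 FTH1 transcripts per TFRC transcript in vehicle, by TPM, and 79.0, 116 and 98.8 after treatment. For FTL the ratios to TFRC were 144, 181 and 103 in vehicle and 23.6, 36.9 and 32.9 after treatment. Neither ratio overlapped between groups. The difference was smaller under the GC and length offsets, where FTH1 was at -0.12, FTL at 0.077 and TFRC at 0.82 on the log2 scale, against -0.25, -0.53 and 1.65 without them. The ratio of ACO1 to IREB2 overlapped, at 6.50 ± 1.46 and 5.95 ± 0.307 (SD, n = 3).

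Other transcripts known to carry an iron-responsive element were listed by name with the members. Of 10 such genes 8 were tested, of which 5 rose, 2 fell and 1 did not pass (median log2 fold change 0.83, against 0.002 over all tested genes). The shares of all tested genes that rose and fell were 28.9% and 26.4%. The 4 with the element at the 3′ end were TFRC, SLC11A2, CDC14A and CDC42BPA, and all 4 rose, beside 28.9% of all tested genes. ACO1 and IREB2, which are not on this list but held a 3′ match with 4 pairs as SLC11A2 did, did not pass. CDC14A, a phosphatase, rose from 1.34 ± 0.587 to 5.12 ± 0.697 CPM (log2 ratio 1.93, edgeR adjusted p = 0.00196), and CDC42BPA, a kinase, from 28.4 ± 4.39 to 57.6 ± 5.99 CPM (1.02). The match in CDC14A, with all 5 pairs, lies at chr1:100518582-100518611 on the plus strand.
CDC14A 3′: atatttacatgtaCAGTGTtacattatata

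Among tested genes with the element at the 5′ end, FTL fell, FTH1 did not pass and EPAS1 rose. EPAS1, the hypoxia factor HIF-2α, rose from 82.6 ± 18.9 to 166 ± 13.3 CPM (1.01) and was named after its value was seen. With both offsets 3 of the 8 were called higher, TFRC, CDC14A and EPAS1, and 0 lower, beside 25.0% and 29.5% of all genes in that fit. CDC42BPA was then at 0.084 and SLC11A2 at -0.046, and neither passed. The difference between 5′ and 3′ carriers was not tested.

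The other iron genes were taken from 4 further lists. Of 17 tested genes of uptake, reduction and export, 8 rose, 4 fell and 5 did not pass, with a median log2 fold change of 0.28. These counts stand beside 28.9% of all tested genes that rose and 26.4% that fell. SLC39A14 (ZIP14), a transporter of iron not bound to transferrin, rose from 27.5 ± 5.26 to 129 ± 20.4 CPM (log2 ratio 2.23 ± 0.183 SE, adjusted p by edgeR = 9.71e-05). LCN2, lipocalin 2, which binds bacterial iron carriers, rose from 0.838 ± 0.266 to 6.04 ± 1.01 CPM (2.84, edgeR adjusted p = 2.15e-04). Both rises held with GC and length offsets, at 1.83 and 3.44. SLC11A1, the phagosomal metal transporter, and TFR2, the second transferrin receptor, fell at vehicle levels of 0.718 ± 0.0996 and 1.08 ± 0.124 CPM (-1.70 and -1.14), and TFR2 was at -0.47 with the offsets and did not pass. With the offsets 6 of the 17 genes were called higher and 3 lower, beside 25.0% and 29.5% of all genes in that fit.

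Of 15 tested genes of iron regulation, 8 rose, 1 fell and 6 did not pass, with a median of 0.83. Over all tested genes 28.9% rose, 26.4% fell and 55.3% passed in either direction. NEO1, neogenin, a partner of hemojuvelin, rose from 8.04 ± 1.36 to 20.1 ± 1.87 CPM (log2 ratio 1.32), and BMPR2, a BMP receptor, from 14.5 ± 4.24 to 41.2 ± 5.37 CPM (1.50). ERFE, erythroferrone, fell from 7.09 ± 0.369 to 4.44 ± 0.748 CPM (-0.67). With the offsets NEO1 was at 0.85, BMPR2 at 0.31 and ERFE at -0.042. In that fit 5 genes of the list were called higher and 3 lower, beside 25.0% and 29.5% of all its genes. FBXL5, the ubiquitin ligase adaptor that targets IREB2 for degradation, was at 0.35 and did not pass (edgeR adjusted p = 0.0524), and with the offsets it was called lower, at -0.38 (edgeR adjusted p = 0.0210).

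Of 22 tested genes of heme synthesis, breakdown and transport, 6 rose, 11 fell and 5 did not pass, with a median of -0.21. The shares over all tested genes were 28.9% that rose and 26.4% that fell. ALAS1, the first enzyme of heme synthesis, fell from 83.8 ± 6.14 to 39.6 ± 1.28 CPM (log2 ratio -1.08, edgeR adjusted p = 2.14e-04), and HMOX2, the constitutive heme oxygenase, from 170 ± 32.2 to 55.7 ± 4.81 CPM (-1.61, edgeR adjusted p = 1.84e-04). HMOX1, the inducible heme oxygenase that frees iron from heme, was at 53.7, 37.7 and 59.2 CPM in vehicle and at 42.1, 55.0 and 47.3 CPM after treatment, and the groups overlapped (-0.061, edgeR adjusted p = 0.804, and 0.51 with the offsets, edgeR adjusted p = 0.0872). BACH1, the heme-sensing repressor of HMOX1 and ferritin genes, rose from 4.33 ± 1.04 to 13.7 ± 1.03 CPM (1.66), and CPOX, a heme synthesis enzyme, from 11.3 ± 3.14 to 24.4 ± 0.857 CPM (1.11). With the offsets ALAS1 was at -0.93, HMOX2 at -1.10, BACH1 at 0.69 and CPOX at 0.91. In that fit 6 genes of the list were called higher and 7 lower, beside 25.0% and 29.5% of all its genes.

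Of 33 tested genes of iron-sulfur cluster assembly, 23 fell, 6 rose and 4 did not pass, with a median of -0.50. Over all tested genes 26.4% fell and 28.9% rose. CIAO3, of the cytosolic assembly complex, fell from 72.2 ± 16.1 to 21.9 ± 3.27 CPM (log2 ratio -1.72, edgeR adjusted p = 3.31e-04), and ISCA2, a mitochondrial assembly factor, from 21.6 ± 0.670 to 9.48 ± 0.839 CPM (-1.19, edgeR adjusted p = 3.32e-04). NFS1, the cysteine desulfurase that supplies the sulfur, rose from 51.5 ± 1.06 to 117 ± 5.24 CPM (1.19), and HSPA9, the mitochondrial chaperone mortalin, from 275 ± 2.52 to 666 ± 7.33 CPM (1.27). With the offsets 19 genes were called lower and 2 higher, beside 29.5% and 25.0% of all genes in that fit. The 2 called higher were NFS1 at 0.88 and HSPA9 at 0.56, and the list median was -0.33. ISCA2 was at -1.68 and CIAO3 at -0.98.

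**Figure D4:**
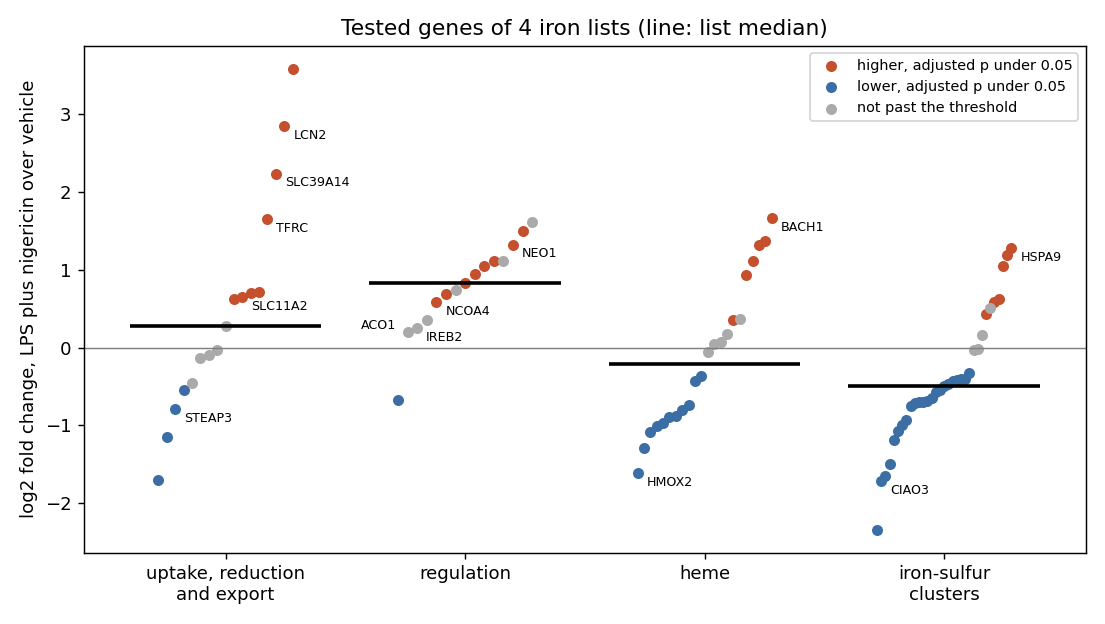
Log2 fold change of LPS plus nigericin over vehicle (y axis) for each tested gene of 4 iron lists (x axis), with TMM scaling. Red and blue points passed the threshold, grey points did not, and lines mark list medians, from 0.83 for regulation to -0.50 for iron-sulfur cluster assembly. The medians fall to 0.23 and rise to -0.33 with GC and length offsets.

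By Pearson correlation of log2 CPM over the 6 libraries, the tested genes most like FTH1 were RPL13A (r = 0.999), ERVK3-1 (0.998) and RPL28 (0.996), all on chromosome 19. RPL13A and RPL28 encode ribosomal proteins, and like FTH1 they were highest in vehicle library 2, RPL13A at 2299 CPM against 1243 to 1715 CPM elsewhere. Those most like TFRC were ZNF721, KDM2A and DDX3X (r = 0.9999, 0.9998 and 0.9998). All 3 were higher in every treated library than in any vehicle library, as DDX3X at 339 to 460.0 CPM against 43.5 to 68.0 CPM. Those most like BEST1 were KIAA1522, PIGM and C18orf21 (r = 0.994, 0.993 and 0.992). KIAA1522 was at 84.4, 67.8 and 79.0 CPM in vehicle and at 57.2 to 58.9 CPM after treatment, so it shared the order of the vehicle libraries with BEST1 but not the size of its spread. These correlations over 6 points in 2 groups describe likeness only, and any gene that differs between the groups tends to score high.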

How the data were processed

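RNA from 6 T24 libraries, 3 vehicle and 3 LPS plus nigericin, was grouped by the labels' titles. The authors deposited raw counts per Ensembl gene, 1 column per library per the file headers, and hg38 is named per the submitters' processing notes. The sources used name no aligner, counter, annotation release or strand setting. Columns were assigned by library name, and 0 columns belonged to no sample. Of 37871 identifiers 31 had no symbol. The main test was edgeR 4.0.16 in R 4.3.3 (filterByExpr, TMM, robust quasi-likelihood F test, Benjamini-Hochberg at 0.05, no term but group). The SE of a log2 fold change is its size divided by the square root of F. Alternatives were RLE factors, library totals, DESeq2 1.42.0, limma-voom (limma 3.58.1), other count filters, the replicate number as a block, loess offsets (span 0.3) for GC content and transcript length in protein-coding genes, no mitochondrial or rRNA genes, summed ferritin rows and leaving out each library. Exons and sequences came from GENCODE 29 on GRCh38. Scripts were tested on simulated counts.

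The members and lists were chosen with earlier results of these data known. All 10 members were named. In each list the 2 called non-members with the smallest p in each direction were named, as were the 3 genes most correlated with FTH1, TFRC and BEST1 and the 2 pseudogenes of each ferritin with the most counts. FBXL5, HMOX1 and EPAS1 were named after their values were seen. The values of 1 further gene that this rule names are not reported here.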

Additional observations from a re-analysis of the deposited data

How the results depend on the processing

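With RLE factors, DESeq2, limma-voom, either count filter, protein-coding genes only (chosen after seeing the data) or no mitochondrial and rRNA genes, all 9 tested members kept their direction and their side of the threshold. With library totals FTH1 was called lower (-0.29). With GC and length offsets FTL (0.077), SLC11A2 (-0.046), NCOA4 (-0.034), ACO1 (-0.53) and IREB2 (-0.75) reversed, members called higher fell from 3 to 1 and genes called higher from 5540 to 3493; the cause was not tested, and this fit holds fewer genes. Replicate numbers do not pair the libraries (correlation of deviations -0.0231, 0.0956 and -0.0236 for equal numbers), and not every library correlated best with its own number. With the replicate block alone BEST1 was not called (-6.0, edgeR adjusted p = 0.113), no other member's call changed, and 5513 genes were called higher and 4895 lower. With the replicate block and the offsets together FTL was at 0.076, SLC11A2 at -0.040, NCOA4 at -0.032, ACO1 at -0.53, IREB2 at -0.75 and BEST1 at -5.93 (edgeR adjusted p = 0.116), with 1 member and 3395 genes called higher. The summed FTH1 and BEST1 counts, mostly FTH1, were at -0.30 in place of BEST1 alone.

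Leaving out each library in turn gave FTH1 -0.38 to -0.09, FTL -0.66 to -0.42, BEST1 -7.62 to -5.35, TFRC 1.56 to 1.74, SLC11A2 0.60 to 0.71, ACO1 0.12 to 0.24, IREB2 0.068 to 0.54, NCOA4 0.50 to 0.64 and STEAP3 -0.89 to -0.70, 3 to 4 members called higher and 2 to 3 lower, and 4341 to 6061 genes higher and 4000 to 5286 lower. The FTL and IREB2 calls that moved are given above. Depth limits only SLC40A1, at 0 to 12 counts.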
